A study of Mus musculus with 35 samples.

Results

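Heat shock proteins and chaperonins are the protein-folding machinery of the cell. The genes described here are the protein-coding genes of the count table whose symbols begin with Hspa, Hspb, Hspd, Hspe, Hsph, Hsp90, Dnaja, Dnajb, Dnajc or Cct (the CCT subunits), together with Tcp1 and Hsf1. The rule found 85 of the 52636 genes in the table. They were 45 J-domain genes, 14 genes of the HSP70 and HSP110 families, 10 genes of the cytosolic chaperonin CCT, 8 small heat shock genes, 3 HSP90 genes, the mitochondrial chaperonin pair Hspd1 and Hspe1, the transcription factor gene Hsf1, and Hspbp1 and Hspbap1. Cct6a was kept although GENCODE M21 gives its gene another type than protein coding. Symbols beginning with Hspb also took in Hspb11, better known as a subunit of intraflagellar transport, Hspbp1, which releases nucleotide from HSP70, and Hspbap1, named for binding a small heat shock protein.

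RNA was sequenced from sorted CD8 T cells of C57BL/6 mice, and every group carried the Cre transgene labelled Lcre+/-. The Dot1l gene, which encodes the methyltransferase of lysine 79 on histone H3, was wild type (Dot1Lwt/wt, WT), floxed on 1 allele (Dot1Lfl/wt, Het) or floxed on both (Dot1Lfl/fl, KO). The cells were thymic CD8 single positive cells and, from the spleen, naive cells (CD44- CD62L+) and memory cells (CD44+ CD62L+). The 9 groups held 4 libraries each, except WT thymus with 3. The labels spell out neither the promoter of the Cre, nor the age of the mice, nor whether each replicate is an animal of its own. From sex-linked transcripts every group held both male and female libraries, so the libraries of a group did not all come from 1 animal. The p-values cover the spread among these libraries, and how much of it is technical is not known.

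HSP70 proteins bind unfolded chains and release them in a cycle driven by ATP. J-domain proteins deliver substrates to HSP70 and set off its ATP hydrolysis, and HSP110 proteins reset it by exchanging nucleotide. HSP90 takes partly folded clients from HSP70, among them kinases of T cell receptor signalling such as Lck. CCT is a double ring of related subunits that folds actin and tubulin, and Hspd1 with its lid Hspe1 does the like for proteins imported into mitochondria. Hsf1 is the transcription factor that switches on heat shock genes through heat shock elements, repeats of the unit NGAAN in alternating orientation.

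Start-site sequences are shown for the members with the longest match to a heat shock element, of which Hspd1, Hspe1 and Hsph1 rose and Dnajb6 fell in KO thymus, and for the inducible pair Hspa1a and Hspa1b. RefSeq windows (GRCm38.p6, 250 bases before to 50 bases after the start) existed for 69 of the 85 members and were searched on both strands. A stretch of 3 units, TTCNNGAA followed by NNTTC, contains both of the shorter motifs TTCNNGAA and GAANNTTC. It was in the windows of 4 members, Hspd1, Hspe1, Hsph1 and Dnajb6, and in the windows of 0.662% of the 27025 genes with one. The motif GAANNTTC was in a window of 16 of the 69 members and of 9.04% of all these genes, and TTCNNGAA of 8 of the 69 and of 9.6% of all. Counted over all 32851 windows the shares were 0.603% for the long stretch, 7.86% for GAANNTTC and 8.52% for TTCNNGAA. Hspd1 and Hspe1 lie head to head, so their 2 lines give both strands of the same bases. Capitals mark the motif, 2 overlapping matches in Hspd1 and Hspe1.
Hspe1 (chr1:55088053-55088082, plus strand): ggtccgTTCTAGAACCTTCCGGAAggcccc
Hspd1 (chr1:55088053-55088082, minus strand): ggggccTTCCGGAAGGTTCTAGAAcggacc
Hsph1 (chr5:149636287-149636316, minus strand): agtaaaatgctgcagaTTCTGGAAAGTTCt
Dnajb6 (chr5:29735844-29735873, plus strand): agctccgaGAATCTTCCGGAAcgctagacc
Hspa1a (chr17:34972242-34972271, minus strand): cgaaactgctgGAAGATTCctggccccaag
Hspa1b (chr17:34959324-34959353, minus strand): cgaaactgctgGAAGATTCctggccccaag
In Hspa1a and Hspa1b, the stress-inducible HSP70 genes, the capitals mark GAANNTTC, and the 30 bases shown are identical. A match is a description of these letters and not a measured binding site.

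Total counts ranged from 4809509 to 16879636 per library (median 10406516). The filter on low counts kept 10296 genes for testing, 64 of them members. The other 21 (Cct6b, Cct8l1, Dnajb3, Dnajb7, Dnajb8, Dnajc22, Dnajc28, Dnajc30, Dnajc4, Dnajc5b, Dnajc5g, Hspa12b, Hspa13, Hspa1l, Hspb1, Hspb2, Hspb3, Hspb6, Hspb7, Hspb8 and Hspb9) had at most 11 counts in a library, and 8 of them had 0 in every library. The table holds few reads of some transcripts that the sorted cells are known for, with Cd8a at 9.98 ± 0.844 CPM (counts scaled to a common library size, SD) in WT thymus against 997 ± 93.5 for Lck, so low counts of a member cannot be read as absence. Dot1l, the targeted gene, had log2 fold changes of 0.20 (thymus), 0.17 (naive) and 0.01 (memory) in libraries labelled KO against WT, none called. A count over the whole gene does not check the deletion, since the labels do not name the floxed exons. All 8 markers of CD8 T cells passed the filter on low counts. Directions below are those of the libraries as labelled. In sorted bulk samples, fewer cells of a type and less RNA per cell cannot be told apart. Counts of Hspa1a and Hspa1b, which are nearly identical, and of genes that overlap on opposite strands, such as Hspd1 with Hspe1, Cct6a with Psph, Cct7 with Pradc1 and Dnajc7 with Nkiras2, are uncertain, because the strand setting of the counting is not given in the sources used here.

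The members together took 0.930% ± 0.0457 (SD, n = 3) of all counts in WT thymus, 0.847% ± 0.0272 in WT naive and 0.939% ± 0.0326 in WT memory libraries (n = 4 each). Hsp90ab1, the constitutive cytosolic HSP90, held 28.7% of all member counts and Hspa8, the constitutive HSP70, 14.8%. Per kilobase of exon these were also the highest members in WT thymus, Hsp90ab1 at 873 and Hspa8 at 287 CPM per kilobase, followed by the CCT subunit gene Cct2 at 146 and Dnajc8, a J-domain gene linked to splicing, at 110. The 3 highest kept this order in WT naive and WT memory cells. In KO thymus the share of counts was 1.14% ± 0.0861 (n = 4), and its lowest library, at 1.02%, lay above the highest WT thymus library at 0.980%. In Het thymus it was 0.962% ± 0.0228. In naive and memory cells the KO and WT ranges overlapped.

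In thymic cells most genes of the general folding machines rose in KO against WT libraries. Of 24 tested HSP70, HSP110, HSP90, HSP60, HSP10 and CCT genes, a grouping made with values known, 17 rose and 0 fell, with a median log2 fold change of 0.36 against 0.02 over all tested genes. Over all 64 tested members 21 rose and 6 fell, where 11.9% of all tested genes rose, 6.77% fell and 18.6% were called in either direction. Of 36 J-domain genes 4 rose and 5 fell. With libraries centred on their mean log level, which lowered the median gene by 0.10 in this comparison, 11 of the 24 rose and 0 fell, and the members split into 11 higher and 8 lower. Without WT replicate 2, 8 of the 24 rose and 13 members were called; 17 members were called without WT replicate 3 and 15 without KO replicate 2.

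The mitochondrial chaperonin pair both rose in thymus. Hspd1 (chr1:55077835-55088243, GRCm38) had 157, 143 and 148 CPM in the WT, 189, 157, 176 and 201 CPM in the Het and 281, 279, 239 and 209.8 CPM in the KO libraries. All 4 KO libraries lay above every WT and Het library, and the lowest Het library was level with the highest WT library. The log2 fold change of KO against WT was 0.76 ± 0.10 (SE, adjusted p = 6.38e-07, edgeR), and that of Het against WT was 0.28 ± 0.10 (adjusted p = 0.776). Hspe1 (chr1:55088132-55091307) stood at 101, 78.9 and 98.8 CPM in WT and 128, 136, 118 and 112 CPM in KO thymus libraries, without overlap (0.42 ± 0.10, adjusted p = 0.00299). The 4 Het libraries, at 84.2, 92.2, 89.2 and 112 CPM, reached from the WT range to just under the lowest KO library. Without WT replicate 2 Hspe1 lost its call (adjusted p = 0.0635). Hspa9, the HSP70 of mitochondria that hands imported proteins to Hspd1, stood at 258, 227 and 255 CPM in WT and 330.3, 321, 313 and 308 CPM in KO libraries (0.37 ± 0.08, adjusted p = 0.000671). Its KO libraries were closely spaced and all above WT, while 1 of 4 Het libraries lay among them at 327 CPM. That library, Het replicate 4, also held the highest Het thymus value of Hspd1, Hspe1, Hsp90aa1, Hsp90b1, Cct7 and Tcp1. It stood apart from its group over the tested genes. Its mean chi-square per gene against the other Het thymus libraries was 34.8 to 45.2, where no other pair within a group exceeded 17.7. Trap1, the HSP90 of mitochondria, was the 1 gene of 12 tested mitochondrial quality control genes that was called in thymus (0.25 ± 0.08). That count was below the 18.6% called over all tested genes. Its call was lost in 6 alternatives, among them mean log centring and leaving out WT replicate 2, WT replicate 3, KO replicate 1 or KO replicate 2 (highest adjusted p = 0.24).

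All 3 HSP90 genes rose in KO thymus. Hsp90aa1, the stress-inducible cytosolic form, went from 95.2, 89.3 and 82.6 CPM in WT to 199, 198, 147 and 133 CPM in KO libraries (0.93 ± 0.16, adjusted p = 0.000105). The Het libraries, at 102, 99.0, 117 and 121 CPM, all lay between the highest WT and the lowest KO value, but Het against WT was not called (0.30 ± 0.16, adjusted p = 0.812). Hsp90ab1 stood at 2889.9, 2323 and 2638 CPM in WT and 3798, 3647, 3296 and 3170.1 CPM in KO libraries (0.41 ± 0.08, adjusted p = 0.00014). Every KO library was above every WT library of this abundant transcript, so its smaller fold change was the larger gain in CPM. Hsp90b1, the HSP90 of the endoplasmic reticulum, had 129, 111 and 117 CPM in WT and 216, 203, 157 and 143 CPM in KO libraries (0.60 ± 0.15, adjusted p = 0.00422). Its Het libraries, at 163, 132, 122 and 169 CPM, overlapped both groups. The 3 HSP90 genes were called in thymus under all alternatives run.

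Of 11 tested HSP70 and HSP110 genes, 6 rose in KO thymus and 0 fell. Hsph1, the cytosolic HSP110, had a log2 fold change of 1.22 ± 0.35 (adjusted p = 0.0133), with 40.5, 25.2 and 25.7 CPM in WT and 82.9, 112, 55.8 and 31.0 CPM in KO libraries. KO replicate 4 lay within the WT range, and Hsph1 lost its call without WT replicate 2, WT replicate 3 or KO replicate 2 and when the fit held WT and KO thymus alone (highest adjusted p = 0.182). Hspa8 rose by 0.38 ± 0.11, from 1438, 1129 and 1131 CPM in WT to 1739, 1857, 1659 and 1159 CPM in KO libraries, again with KO replicate 4 among the WT values. Its call was lost in 6 alternatives, among them mean log centring and leaving out WT replicate 2, WT replicate 3 or KO replicate 2 (highest adjusted p = 0.283). Smaller rises were called for Hspa4, a relative of HSP110 (0.24 ± 0.07), and Hspa14, an HSP70 bound to ribosomes (0.35 ± 0.13). Hspa12a, a distant HSP70 relative, had 1, 2 and 6 counts in the WT and 10 to 21 counts in the KO thymus libraries, and its log2 fold change of 2.24 ± 0.65 rests on these few reads. Hspa5, the HSP70 of the endoplasmic reticulum, had a log2 fold change of 0.26 ± 0.10 (adjusted p = 0.0669), Hspa4l of -0.14 ± 0.11 (adjusted p = 0.409) and Hspa2 of 0.36 ± 0.46 (adjusted p = 0.683), none of them called by edgeR. Hspa5 was called with the replicate block and without KO replicate 4 (highest adjusted p = 0.0465). Without WT replicate 2 the calls in this group fell to 2 of 11, and there were 3 with mean log centring, without the filter on low counts, with only WT and KO thymus fitted, without WT replicate 3 or without KO replicate 2.

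Of 8 tested CCT subunit genes, 6 rose in KO thymus. Cct7 stood at 195, 194 and 188 CPM in WT and 234, 258, 246 and 237 CPM in KO libraries (0.34 ± 0.07, adjusted p = 0.000142). Tcp1, the first subunit of the ring, stood at 222, 220.2 and 248 CPM in WT and 312, 306, 299.7 and 281 CPM in KO libraries (0.38 ± 0.07, adjusted p = 0.000148). Neither gene overlapped between WT and KO, and their Het libraries, at 207, 199.6, 193 and 215 CPM for Cct7 and 239.6, 215, 254 and 269.6 CPM for Tcp1, lay below all KO libraries. Cct6a, at 32.6, 27.3 and 31.8 CPM in WT and 38.7, 42.1, 37.5 and 47.0 CPM in KO libraries, rose by 0.44 ± 0.11 (adjusted p = 0.00331) and lost its call without WT replicate 2 (adjusted p = 0.0518). The other subunits called were Cct3 (0.40 ± 0.12), Cct8 (0.29 ± 0.08) and Cct4 (0.23 ± 0.08). Cct2 and Cct5 had values of the same sign, 0.20 ± 0.07 (adjusted p = 0.0515) and 0.18 ± 0.08 (adjusted p = 0.125), and were not called by edgeR. Cct2 was called in 5 alternatives, namely DESeq2, RLE scaling, the sex covariate, only the libraries compared, and without KO replicate 1 (highest adjusted p = 0.0499). The 8 subunits thus spanned log2 fold changes from 0.18 to 0.44. The count fell to 3 with mean log centring and to 2 without WT replicate 2.

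**Figure D1:**
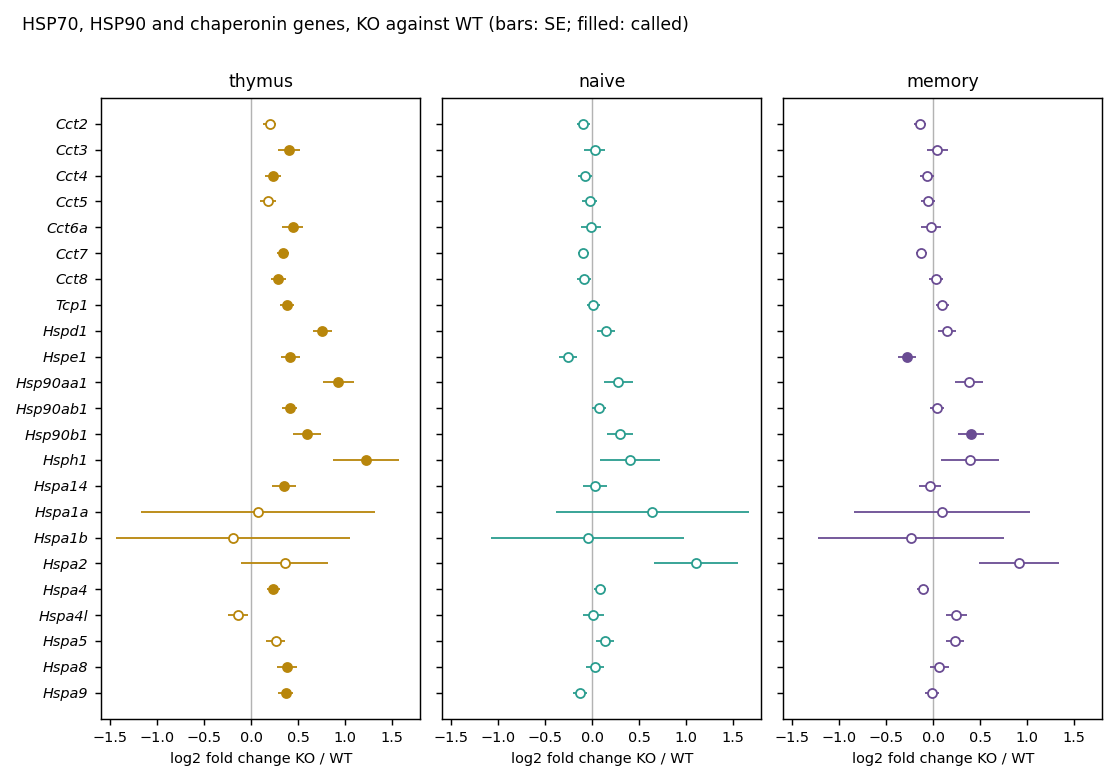
Log2 fold change of KO against WT (x axis, point with SE bar) for the tested chaperonin, HSP90, HSP110 and HSP70 genes (rows, Hspa12a left out for its low counts) in thymic, naive and memory CD8 T cells, with filled points for genes called at an adjusted p under 0.05 (edgeR). In thymus most points lie to the right of 0 and are filled, while in naive cells none is filled and in memory cells Hspe1 (lower) and Hsp90b1 (higher) are.

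Proliferation genes moved with this group. In KO against WT thymus 15 of 19 tested proliferation genes rose and 0 fell, beside 11.9% higher and 6.77% lower over all tested genes. Among those that rose were the replication licensing genes Mcm2 (0.72 ± 0.07) and Mcm6 (0.70 ± 0.08). The summed level of the list was 9093 to 10230.0 CPM in WT and 10910.0 to 12840.0 CPM in KO libraries. The summed level of 8 markers of double positive thymocytes, the stage before single positive cells, was 22.3 to 28.6 CPM in WT and 27.5 to 43.6 CPM in KO thymus libraries, with 1 of 4 tested markers called higher and no marker at 0 in either group. Cd8a is among these 8 and also among the markers of CD8 T cells, so part of the sum is not particular to that stage. The summed level of 12 B cell markers was 7.90 to 17.3 CPM in WT and 15.8 to 26.3 CPM in KO thymus libraries, with 1 of 9 tested markers called higher. In the spleen this sum reached 261.3 CPM in 1 KO naive library, but also 112.8 CPM in WT naive and 170.1 CPM in WT memory libraries. There 0 of 9 markers were called in KO against WT in either spleen subset (edgeR), and 0 under an unadjusted p of 0.05. The summed level of 5 erythroid markers was 3.14 to 3.45 CPM in WT thymus and 4.165 to 27.1 CPM in WT naive libraries. The summed level of 4 markers of CD4 T cells was 5.17 to 6.21 CPM in WT and 13.5 to 24.9 CPM in KO memory libraries, without overlap. In naive libraries it was 0.216 to 1.61 CPM in WT and 1.31 to 8.38 CPM in KO. Of the 2 tested CD4 markers, Zbtb7b was called higher in KO memory and KO naive cells, while Cd4 and Cd40lg were at 0 in all 4 KO memory libraries. The part of these genes in the chaperone results was not tested. Of the 19 proliferation genes 9 rose and 1 fell in memory cells (12.8% and 9.32% of all tested genes), with Mcm2 at 0.78 ± 0.07. In naive cells 2 rose and 1 fell, near the 11.1% and 7.11% of all tested genes. The summed level of the proliferation list was 4826 to 5719 CPM in WT and 4924 to 5089 CPM in KO memory libraries. In naive libraries it was 5293 to 6586 CPM in WT and 4550.0 to 5368 CPM in KO.

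The J-domain genes called in thymus went both ways. Dnajb5, a cytosolic co-chaperone of HSP70, fell from 74.8, 77.1 and 81.4 CPM in WT to 51.9, 50.1, 53.0 and 64.8 CPM in KO libraries (-0.50 ± 0.11, adjusted p = 0.000941). The Het libraries, at 76.5, 79.9, 72.2 and 74.8 CPM, were all above the KO libraries. Its relative Dnajb4 fell by 0.97 ± 0.30 on the log2 scale, Dnajc10, a reductase of the endoplasmic reticulum, by 0.36 ± 0.12, Dnajc16 by 0.36 ± 0.13, and Dnajb6, which binds aggregation-prone proteins, by 0.23 ± 0.08. The 4 that rose were Dnajc9, a histone chaperone (0.53 ± 0.19), Dnajb11, an HSP40 of the endoplasmic reticulum (0.31 ± 0.10), Dnajc2, which works at the ribosome (0.26 ± 0.09), and Dnaja2, a main cytosolic HSP40 (0.20 ± 0.07). Dnajb5 was called in every alternative run, whereas all 4 that rose lost their calls with mean log centring, where 0 J-domain genes rose and 7 fell. Leaving out any 1 thymus library gave between 3 and 6 calls in place of 9; without KO replicate 1 or KO replicate 2 there were 3, and without WT replicate 1, WT replicate 2, WT replicate 3 or KO replicate 3 there were 4. With the replicate number as a block there were 5.

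**Figure D2:**
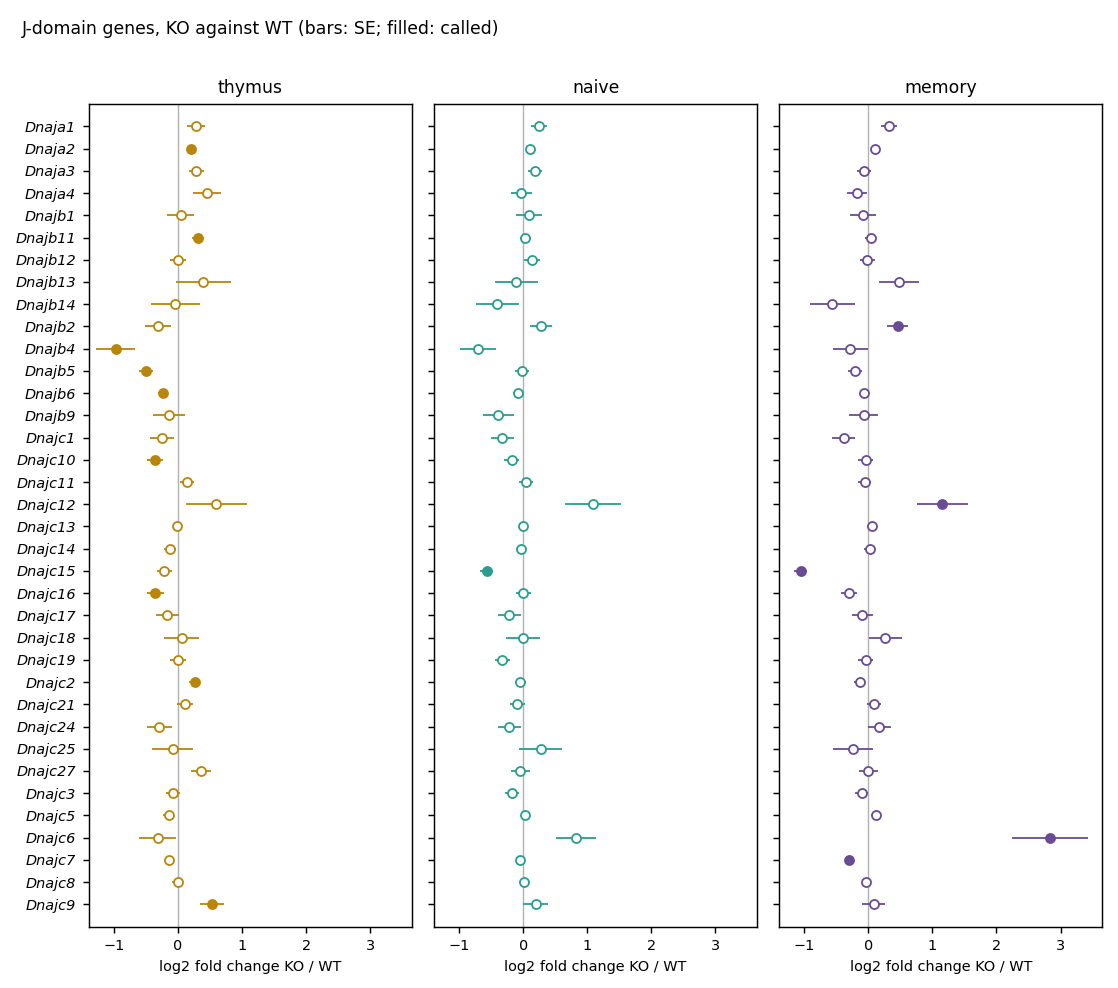
Log2 fold change of KO against WT (x axis, point with SE bar) for the 36 tested J-domain genes (rows) in the 3 subsets, with filled points for genes called at an adjusted p under 0.05 (edgeR). Filled points lie on both sides of 0 in thymus, and Dnajc15 is the 1 filled point in naive cells and the lowest in memory cells.

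In naive cells 1 of the 64 tested members rose and 2 fell, where 11.1% of all tested genes rose, 7.11% fell and 18.2% were called. In memory cells 4 rose and 4 fell, where 12.8% rose, 9.32% fell and 22.2% were called. None of the 8 CCT genes was called in either subset by edgeR or by DESeq2, with 0 of them in naive and 2 in memory cells under an unadjusted p of 0.05. Their log2 fold changes ran from -0.10 to 0.03 in naive and from -0.14 to 0.10 in memory cells. With mean log centring the members split into 1 higher and 11 lower in naive and 2 higher and 11 lower in memory cells. The members called in memory cells fell to 5 without WT replicate 1 and to 5 without KO replicate 1.

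Dnajc15, a J-domain protein of the mitochondrial inner membrane that restrains the respiratory chain, was the member with the lowest adjusted p in memory cells. In memory cells it had 70.2, 64.8, 65.7 and 56.7 CPM in the WT, 76.0, 69.3, 61.2 and 56.5 CPM in the Het and 29.8, 33.6, 31.8 and 28.8 CPM in the KO libraries. All KO libraries were below all WT and Het libraries (-1.05 ± 0.10 against WT, adjusted p = 4.45e-11). In naive cells it had 52.2, 51.4, 44.6 and 44.1 CPM in WT, 50.8, 44.1, 43.1 and 43.6 CPM in Het and 33.7, 35.05, 27.3 and 33.0 CPM in KO libraries, again without overlap of KO with the others (-0.57 ± 0.10, adjusted p = 5.36e-05). In thymus, where it was lowest, KO libraries had 14.9, 15.7, 15.6 and 14.7 CPM and WT libraries 19.7, 16.0 and 17.6 CPM (-0.21 ± 0.12, adjusted p = 0.253). The KO effect differed between memory and thymic cells (-0.84 ± 0.16, adjusted p = 0.000237), while the difference between memory and naive cells (-0.48 ± 0.14, adjusted p = 0.0784) and that between naive and thymic cells (-0.36 ± 0.16, adjusted p = 0.204) were not called by edgeR. The first of these was called in 5 alternatives, namely DESeq2, the replicate block, no filter on low counts, only the libraries compared, and without KO naive replicate 3 (highest adjusted p = 0.049).

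Other members were called in spleen cells. Dnajc7, a co-chaperone with binding sites for both HSP70 and HSP90, had 203, 215, 207 and 220.4 CPM in WT and 181, 179, 160.4 and 168 CPM in KO memory libraries (-0.29 ± 0.06, adjusted p = 0.000139). The groups did not overlap, and the Het memory libraries, at 211, 212, 228 and 246 CPM, lay above all KO libraries. Hspbap1 was called in no comparison. Hspbp1 fell by 0.48 ± 0.13 and Hspe1 by 0.28 ± 0.09 in memory cells. Hspe1 had 147, 139, 133 and 126 CPM in WT and 117, 119, 108 and 105 CPM in KO memory libraries, the reverse of its direction in thymus. In naive cells its value was -0.26 ± 0.10 (adjusted p = 0.0532), and it was called there in 7 alternatives, among them mean log centring, the replicate block and leaving out WT replicate 3 or KO replicate 1 (highest adjusted p = 0.0482). Its partner Hspd1 was not called in either spleen subset (0.15 ± 0.10 in naive and 0.15 ± 0.10 in memory cells).

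Hsp90b1 rose in memory cells too (0.40 ± 0.14, adjusted p = 0.0322), with 125, 131, 109 and 110.3 CPM in WT and 174, 179, 140.3 and 132 CPM in KO libraries. These groups did not overlap, but the call was lost in 7 of the alternatives, mean log centring among them (highest adjusted p = 0.153). Hsp90aa1 was not called by edgeR in naive (0.28 ± 0.15) or memory cells (0.39 ± 0.15, adjusted p = 0.0627). In memory cells it was called by DESeq2, with the replicate block, with a non-robust fit and without KO replicate 4 (highest adjusted p = 0.0413). Dnajb2, a neuronal-type HSP40 with ubiquitin-binding motifs, rose by 0.46 ± 0.16 and Dnajc12, which works with aromatic amino acid hydroxylases, by 1.15 ± 0.39 in memory cells. Dnajc6, which uncoats clathrin vesicles with HSP70, had 1, 1, 2 and 3 counts in WT, 8, 3, 1 and 0 in Het and 15, 14, 21 and 9 in KO memory libraries. All KO libraries were above all others, but the size of the change (2.83 ± 0.59) rests on these few WT counts. Hspb11, the 1 tested gene of the small heat shock group, fell in thymus (-0.72 ± 0.22) and naive cells (-0.84 ± 0.22), and Hspa12a rose in naive cells (2.18 ± 0.76) on at most 13 counts in a library. The naive call of Hspa12a was lost without WT replicate 1, WT replicate 3, WT replicate 4 or KO replicate 3 (highest adjusted p = 0.164). Hspa2 was not called in naive cells by the main fit. It was called higher there with a non-robust fit and without WT replicate 1 or KO replicate 2 (highest adjusted p = 0.0497). Against Het, Hspa2 was called higher in KO memory cells, a call lost in 9 alternatives (highest adjusted p = 0.182).

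**Figure D3:**
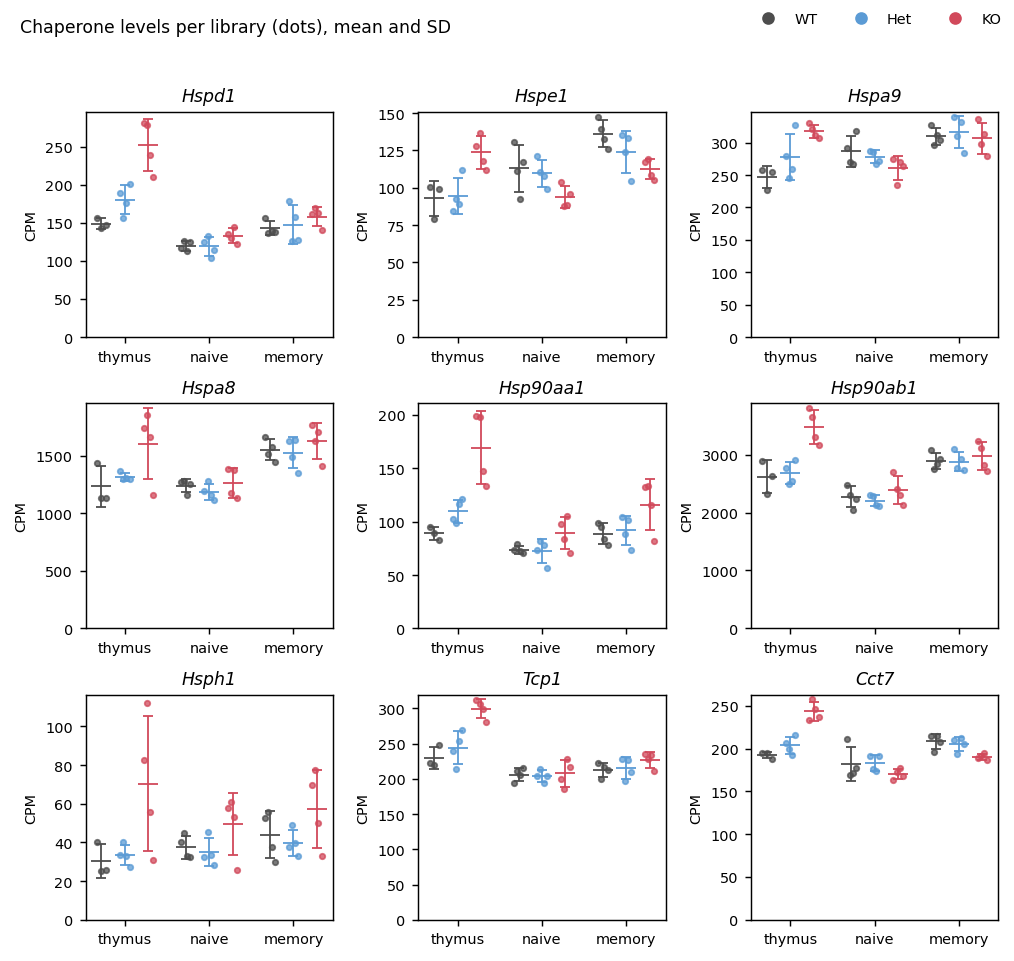
Levels in CPM (y axis, from 0) of 9 folding genes in each library (points), with group mean and SD (bars), for WT, Het and KO libraries of the 3 subsets. In thymus the KO libraries of Hspd1, Hspe1, Hspa9, Hsp90aa1, Hsp90ab1, Tcp1 and Cct7 all lie above the WT libraries, and in Hspa8 and Hsph1 KO replicate 4 lies among them.

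The KO effect itself was compared between subsets. Going from thymus to naive cells it was lower for 7 members and higher for 0, where 3.33% of all tested genes were lower, 3.01% higher and 6.34% called in either direction. The 7 were Hspe1 (-0.68 ± 0.14), Hspd1 (-0.61 ± 0.14), Hspa9 (-0.50 ± 0.11), Cct7 (-0.43 ± 0.09), Cct8 (-0.38 ± 0.11), Tcp1 (-0.37 ± 0.10) and Hsp90ab1 (-0.34 ± 0.11), all among the folding machines. That grouping was made with the thymus values known, and the same thymus libraries enter here. Hsp90ab1 lost this call in 13 alternatives, mean log centring among them (highest adjusted p = 0.207), Cct8 in 9 (0.167) and Tcp1 in 3 (0.07). Hsp90aa1 had a difference of -0.65 ± 0.22 that was not called by edgeR (adjusted p = 0.0808) but was called by DESeq2, with the replicate block and without KO thymus replicate 4 (highest adjusted p = 0.032). Going from thymus to memory cells the effect was lower for 11 members and higher for 1, Dnajc6, where 5.14% of all tested genes were lower, 4.13% higher and 9.27% called. Of the 11, 8 were folding machine genes, with Hspe1 (-0.69 ± 0.14), Hspd1 (-0.61 ± 0.14) and Cct7 (-0.47 ± 0.09) among them. Of the 11, Cct6a lost this call in 14 alternatives (highest adjusted p = 0.168) and Dnajc2 in 10 (0.105), the replicate block among both. Both comparisons share the thymus libraries. Without WT thymus replicate 2 the counts were 4 and 5. Between memory and naive cells 0 members were called by edgeR and 1 by DESeq2, with 4 under an unadjusted p of 0.05, where 0.67% of all tested genes were higher, 1.12% lower and 1.79% called.

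Against Het libraries, 11 members rose and 6 fell in KO thymus (11.9% of all tested genes rose, 7.28% fell, 19.1% in either direction), 2 rose and 2 fell in naive cells (10.5%, 6.5% and 16.9%), and 5 rose and 3 fell in memory cells (11.6%, 8.59% and 20.2%). These comparisons use the same KO libraries as those above. Of the 24 folding machine genes, the grouping made with values known, 10 rose and 0 fell in thymus, including Hspd1 (0.48 ± 0.09), Hsp90aa1 (0.62 ± 0.15), Hsp90ab1 (0.38 ± 0.07), Hspe1 (0.39 ± 0.10) and Tcp1 (0.29 ± 0.07). Dnajc15 fell in all 3 subsets against Het, by 0.45 ± 0.11 (thymus), 0.49 ± 0.10 (naive) and 1.08 ± 0.10 (memory). With mean log centring these counts split into 7 higher and 12 lower in thymus, 2 and 9 in naive, and 2 and 10 in memory cells. The naive count was 1 without Het replicate 2 and 2 without Het replicate 4, and the memory count was 4 without KO replicate 3. Het against WT gave 0 called members in each subset by edgeR and by DESeq2, where 0.0% of all tested genes were called in thymus and naive cells and 0.00971% in memory cells. Under an unadjusted p of 0.05 there were 7 members for thymus and 0 for each spleen subset.

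Some members also differed between WT subsets, at counts near the shares of all tested genes. From thymus to naive spleen 8 of the 64 tested members rose and 10 fell (15.3% and 16.9% of all tested genes, 32.2% in either direction). From naive to memory cells 8 rose and 4 fell (7.68% and 7.38%, 15.1% in either direction). Dnaja4, an HSP40 with a membrane anchor, was at 4.63 ± 1.62 CPM in thymus (SD, n = 3), 19.6 ± 1.61 in naive and 34.3 ± 6.17 CPM in memory cells (n = 4 each), and rose at both steps (2.14 ± 0.21 and 0.82 ± 0.16). Dnajc15 rose at both as well, by 1.44 ± 0.12 and 0.43 ± 0.10. Hspa4l, a relative of HSP110, fell at both, from 38.1 ± 3.13 to 18.6 ± 0.990 and 12.2 ± 0.832 CPM (-1.04 ± 0.11 and -0.60 ± 0.11). Dnajc6 also fell at both (-1.30 ± 0.32 and -4.15 ± 0.53), to the few counts in WT memory given above.

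Hsp90ab1 and Hspa4 were lower in naive cells than in either of the other subsets. Hsp90ab1 changed by -0.21 ± 0.08 from thymus to naive and by 0.35 ± 0.07 from naive to memory cells, and Hspa4 by -0.31 ± 0.07 and 0.22 ± 0.06. Hspa5 (-0.48 ± 0.10) and Dnajb5 (-0.87 ± 0.11) fell from thymus to naive cells, and Hspa8 (0.32 ± 0.10) and Cct7 (0.20 ± 0.06) rose from naive to memory cells. With mean log centring Hsp90ab1 lost its naive against thymus call (highest adjusted p over its alternatives 0.265), and Hspa4, Hspa8 and Cct7 lost their memory against naive calls (0.0908, 0.0887 and 0.117). Leaving out 1 library also ended these calls, for Hsp90ab1 WT thymus replicate 1, WT thymus replicate 3, WT naive replicate 3 or WT naive replicate 4. For Hspa4 it was WT naive replicate 3, WT naive replicate 4 or WT memory replicate 3, for Hspa8 any of these or WT memory replicate 1, and for Cct7 any of those 4 or WT naive replicate 2. All 19 tested proliferation genes were lower in naive than in thymic WT cells, and the part of this in the chaperone levels was not tested. Hsf1 was at 87.0 ± 3.97 CPM in WT thymus, 113 ± 13.9 in naive and 105 ± 14.1 CPM in memory cells and rose from thymus to naive cells (0.37 ± 0.10, adjusted p = 0.00422). It was not called in any KO comparison, with KO means of 87.2 ± 8.62, 109.6 ± 7.16 and 101 ± 7.69 CPM. Memory against naive counts of called members were 7 with mean log centring and 6 without WT memory replicate 3, and 7 without WT naive replicate 3, WT naive replicate 4 or WT memory replicate 1.

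**Figure D4:**
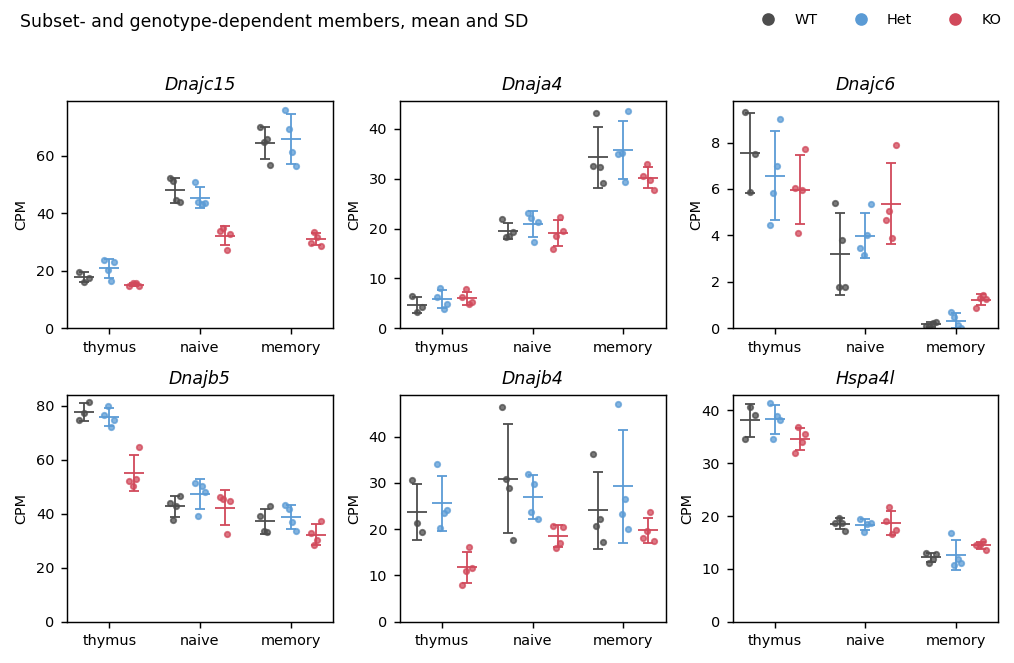
Levels in CPM (y axis, from 0) of 6 members in each library (points), with group mean and SD (bars), for WT, Het and KO libraries of the 3 subsets. Dnajc15 and Dnaja4 step up from thymus to naive to memory cells in WT and Het libraries and Hspa4l steps down, and the KO libraries of Dnajc15 lie below WT and Het in both spleen subsets.

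Of 25 tested co-chaperones of HSP70 and HSP90, 8 rose, 0 fell and 17 were not called in KO thymus, beside 11.9% higher and 6.77% lower over all tested genes. Among the 8 were Ptges3, the p23 co-chaperone of HSP90 (0.66 ± 0.11), Ahsa1, which speeds its ATP hydrolysis (0.46 ± 0.12), Nudc (0.48 ± 0.12) and Chordc1 (0.47 ± 0.14). The call of Chordc1 was lost in 7 alternatives, among them mean log centring and leaving out WT replicate 2, WT replicate 3, KO replicate 1 or KO replicate 2 (highest adjusted p = 0.105). That of Ahsa1 was lost with mean log centring and without WT replicate 2 or KO replicate 2 (highest adjusted p = 0.0681). In naive cells 0 of 25 were called by edgeR and by DESeq2, with 5 under an unadjusted p of 0.05, where 18.2% of all tested genes were called. In memory cells Bag3, a nucleotide exchange factor of HSP70 (1.01 ± 0.26), and Ptges3 (0.33 ± 0.10) rose and Sugt1 fell by 0.40 ± 0.12. Over all tested genes 12.8% rose and 9.32% fell in memory cells, so these calls of 25 tested genes were not above the background. Ptges3 lost this call with mean log centring and without WT replicate 3, WT replicate 4 or KO replicate 1 (highest adjusted p = 0.129), and Sugt1 without WT replicate 1 (adjusted p = 0.0511). Prefoldin and the other chaperonin cofactors, which pass actin and tubulin to and from CCT, gave 0 calls of 13 tested in each of the 3 subsets by edgeR and by DESeq2, with 2 in thymus and 0 in naive and memory cells under an unadjusted p of 0.05. Hsf2, a second heat shock factor, rose in all 3 subsets (thymus 0.48 ± 0.16, naive 0.65 ± 0.16, memory 0.72 ± 0.16), and so did Hsf4 (1.88 ± 0.58, 2.29 ± 0.44 and 1.57 ± 0.30). Hsf2 lost its thymus call in 7 alternatives, mean log centring among them (highest adjusted p = 0.128). Hsf4 lost its thymus call in 4, no filter on low counts among them (0.136), and its thymus value ran from 1.515 to 2.885 over the alternatives. The summed level of the 4 heat shock factor genes other than Hsf1 was 16.1 to 19.2 CPM in WT thymus and 9.74 to 14.0 CPM in WT naive libraries. Hsf4 was only a part of that, so its fold changes rest on low levels. Leaving out WT replicate 1, WT replicate 2 or KO replicate 4 ended the call of both.

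In the endoplasmic reticulum list, 7 of 22 tested genes rose and 1 fell in thymus, 2 rose and 2 fell in naive cells, and 5 rose and 1 fell in memory cells. Over all tested genes 18.6%, 18.2% and 22.2% were called, so the naive and memory counts were near the background. Atf6, a sensor of unfolded proteins, rose in all 3 (1.02 ± 0.19, 1.18 ± 0.19 and 0.58 ± 0.16). Edem1, which marks misfolded glycoproteins for disposal, fell in all 3 (-0.64 ± 0.07, -0.54 ± 0.07 and -0.60 ± 0.07). Sdf2l1, a partner of Hspa5, rose in thymus (1.06 ± 0.19), as did the lectin chaperone Canx (0.30 ± 0.07), which lost its call with mean log centring (adjusted p = 0.0687). Of 12 tested immediate early genes, which respond to stimulation and to handling, 0 rose and 6 fell in KO thymus, among them Nfkbia (-0.51 ± 0.09) and Nr4a1 (-0.65 ± 0.17). In naive cells 2 rose and 0 fell, and in memory cells 1 rose and 2 fell. The median summed level of the list was 818 CPM in WT and 556 CPM in KO thymus, 638 and 759 CPM in naive, and 531 and 615 CPM in memory libraries, and its part in the chaperone results was not tested. Hscb, which works with Hspa9 on iron-sulphur clusters, was the 1 mitochondrial gene of 12 called in memory cells (-0.59 ± 0.14), below the 22.2% of all tested genes.

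The stress-inducible HSP70 genes Hspa1a and Hspa1b were called in no comparison of genotypes, and their libraries differed widely within groups. Hspa1b had 209.6, 30.9, 25.5 and 2.3 CPM in the WT naive and 173, 33.0, 40.4 and 0.627 CPM in the WT memory libraries of replicates 1 to 4. In KO libraries it had 83.5, 19.5, 135 and 6.30 CPM in naive and 56.3, 14.3, 127 and 7.75 CPM in memory cells. WT replicate 1 and KO replicate 3 were the highest of their groups in both subsets, and WT and KO replicate 4 the lowest. The Het libraries did not keep such an order. Their Hspa1b counts, not scaled, were 1008, 582, 768 and 197 in naive and 689, 267, 517 and 554 in memory libraries. Het replicate 4 was thus the lowest in naive but not in memory cells. Hspa1a had 64.3, 8.69, 6.15 and 0 CPM in WT naive and 62.7, 16.3, 18.8 and 0 CPM in WT memory libraries, with 0 in replicate 4 of both. In thymus Hspa1b ran from 4.48 to 39.7 CPM in WT and from 9.36 to 17.1 CPM in KO libraries.

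Equally numbered naive and memory libraries of a genotype were compared for 4 stress-inducible genes, chosen after their values were seen. On the log2(CPM + 1) scale over 12 pairs, Hspa1b had a Pearson r of 0.924 and a Spearman rho of 0.881, and r was 0.812 without the 2 naive libraries farthest from the median. For Hspa1a r was 0.919, rho 0.874 and r without the 2 farthest 0.782. For Hsph1 they were 0.93, 0.916 and 0.863, and for Dnajb1, the main partner of inducible HSP70, 0.797, 0.692 and 0.677. No p is given, since the genes were picked for this pattern. With genotype means removed r was 0.919, 0.927, 0.909 and 0.847 for Hspa1b, Hspa1a, Hsph1 and Dnajb1. These values pool the genotypes, and r within Het alone, where Hspa1b did not keep its order, was not computed. The labels do not say whether equal numbers mark the same animal or sorting day. By sex-linked transcripts, both libraries of each of the 12 pairs had the same sex. WT thymus replicate 3 was male, whereas WT naive and WT memory replicate 3 were female, so that number does not mark the same animal in thymus and spleen.

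**Figure D5:**
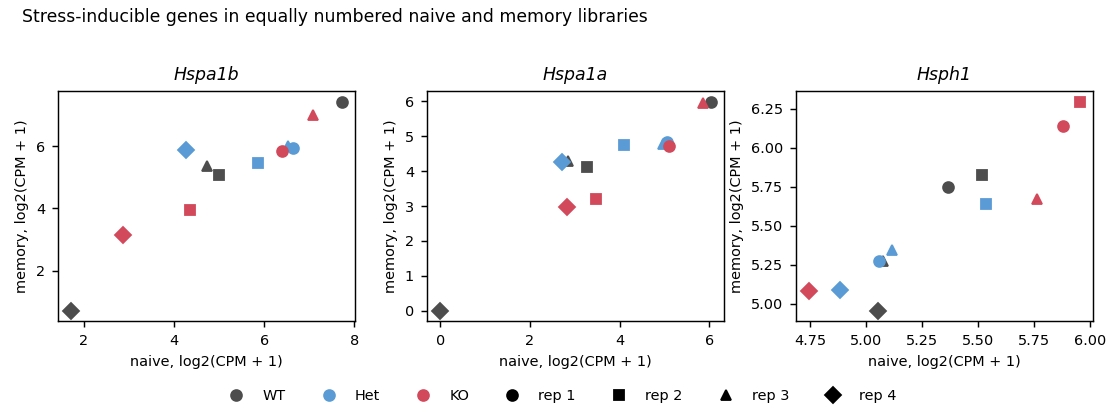
Level in memory (y axis) against naive libraries (x axis) of the same genotype and replicate number, both log2(CPM + 1), for Hspa1b, Hspa1a and Hsph1 (colour for genotype, shape for replicate number). Libraries that are high in naive cells are mostly high in memory cells, with WT replicate 4 at the bottom for Hspa1a and Hspa1b.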

How the data were processed

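Strand-specific mRNA libraries from sorted CD8 T cells were sequenced as 65-base single reads, per the labels' protocols. GRCm38 and mm10 are the builds named, and HTSeq 0.9.1, TopHat2 2.1.0 and TopHat the tools, per the submitters' processing notes. The values the authors deposited are unnormalized read counts by Ensembl gene. The annotation release and strand setting are not given in the sources used here. Symbols and positions came from GENCODE M21, which named 52489 of 52636 identifiers. No column of the table was left out.

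Low genes were removed with filterByExpr (9 groups). Libraries were scaled by TMM (factors 0.927 to 1.07) and genes tested in R 4.3.3 with edgeR 4.0.16 in 1 robust quasi-likelihood fit of all 35 libraries (residual degrees of freedom 26). Benjamini-Hochberg adjustment of two-sided p-values ran across the 10296 genes, with calls under 0.05. Fold changes are log2 ± SE, taken as their size over the square root of F. The test was also run on counts simulated for KO against WT thymus, with a spread that followed the trend over expression alone. That run does not cover the spread of single genes in these data. From sex-linked transcripts 24 libraries were male and 11 female.

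Every tested HSP70, HSP110, HSP90, chaperonin and Hspb gene and Hsf1 is named, of J-domain genes up to 5 called per subset and direction in KO against WT, and of each pathway list up to 4 genes with the lowest adjusted p. Values per library are given for the 12 members with the lowest adjusted p in KO against WT and a mean of at least 10 CPM. Dnajb1, Hspa1a and Hspa1b libraries, Hsph1 and Hspa8 libraries, and the fold changes between WT subsets were chosen after values were seen. The members and lists were chosen with earlier results of these data known. Equally numbered libraries deviated together in every pair (correlation over 0.1) for KO against Het naive (0.14 to 0.26) and memory against naive WT libraries (0.21 to 0.31), a pairing read from the data. Alternatives were RLE scaling, mean log centring (prior count 2), no low-count filter, a stricter one (4 libraries with CPM of 1 or more), a non-robust fit, a sex covariate, the replicate block, only the libraries compared, DESeq2 1.42.0, and each library left out.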

Additional observations from a re-analysis of the deposited data

Results flagged for a closer look

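Single libraries stood apart from the other 3 of their group for some members, by a gap test that marks about 1 in 20 groups by chance. The test covered the 12 members with values per library and Hspa1a and Hspa1b, in every group but WT thymus. At that rate several marked libraries would arise by chance over so many genes and groups. Those marked were the highest Het naive library of Dnajc15 (50.8 CPM), the highest WT memory library of Hspd1 (156.7 CPM) and the lowest KO naive library of Dnajb5 (32.5 CPM). For Hspa1a they were the highest Het thymus library (16.0 CPM), the highest WT naive library (64.3 CPM) and the lowest Het memory library (18.4 CPM), and for Hspa1b the highest WT naive library (209.6 CPM).

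The effect of KO against WT differed between naive and thymic cells, by a test of the difference itself (edgeR), for Hsp90ab1 (-0.34 on the log2 scale), Hspa9 (-0.50), Cct8 (-0.38), Hspd1 (-0.61), Cct7 (-0.43), Tcp1 (-0.37) and Hspe1 (-0.68). Between memory and thymic cells it differed for Hspa4 (-0.34), Dnajc15 (-0.84), Hsp90ab1 (-0.37), Hspa9 (-0.38), Hspd1 (-0.61), Dnajc6 (3.15), Dnajc2 (-0.39), Cct6a (-0.46), Cct7 (-0.47), Cct2 (-0.34), Hspbp1 (-0.69) and Hspe1 (-0.69).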

How the results depend on the processing

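Called members did not change direction under any alternative run. In every alternative, 8 of the 27 members called in KO against WT thymus were called (Cct7, Dnajb5, Hsp90aa1, Hsp90ab1, Hsp90b1, Hspa9, Hspd1 and Tcp1), 2 of 3 in naive cells (Dnajc15 and Hspb11) and 4 of 8 in memory cells (Dnajc15, Dnajc6, Dnajc7 and Hspbp1). Mean log centring gave 12 called members in KO against WT naive, 13 in memory, 11 in KO against Het naive and 7 in memory against naive WT cells. Without the filter on low counts there were 5 in KO against WT naive, 5 in memory, 5 in KO against Het memory and 1 in the memory against naive difference of the KO effect. KO against WT naive gave 5 with estimates that were not robust, 5 with the sex covariate and 5 with DESeq2. DESeq2 gave 11 in the naive against thymus difference of the KO effect and 1 in the memory against naive one, as did only the libraries compared (1).

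With the replicate number as a block, KO against WT gave 22 (thymus), 6 (naive) and 9 (memory) called members, and the memory against naive difference of the KO effect gave 1. The paired memory against naive WT fit gave 15 and that of KO against Het naive 5.

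Leaving out each library gave 13 to 23 called members in KO against WT thymus, 3 to 4 in naive and 5 to 9 in memory cells, and 13 to 21, 1 to 4 and 4 to 9 against Het. It gave 6 to 11 in memory against naive and 14 to 20 in naive against thymus WT cells. For the KO effect it gave 4 to 10 in the naive against thymus, 0 to 1 in the memory against naive and 5 to 13 in the memory against thymus difference. Without KO thymus replicate 1, Cct3, Cct4, Dnaja2, Dnajb11, Dnajb4, Dnajb6, Dnajc16, Dnajc2 and Dnajc9 lost the KO against WT call. Without KO thymus replicate 2, Cct3, Cct4, Dnaja2, Dnajb4, Dnajc10, Dnajc16, Dnajc2, Dnajc9, Hspa14, Hspa8, Hspb11 and Hsph1 lost the KO against WT call. Without KO thymus replicate 3, Cct4, Dnaja2, Dnajb6, Dnajc10, Dnajc16, Dnajc9 and Hspa14 lost the KO against WT call. Without KO thymus replicate 4, Dnajb4, Dnajc10, Dnajc16, Hspa14 and Hspb11 lost the KO against WT call. Without WT thymus replicate 1, Cct4, Dnaja2, Dnajb11, Dnajb4, Dnajb6, Dnajc10, Dnajc16, Dnajc9, Hspa12a and Hspa14 lost the KO against WT call. Without WT thymus replicate 2, Cct3, Cct4, Cct6a, Cct8, Dnaja2, Dnajb11, Dnajc16, Dnajc2, Dnajc9, Hspa12a, Hspa4, Hspa8, Hspe1 and Hsph1 lost the KO against WT call. Without WT thymus replicate 3, Cct4, Dnajb6, Dnajc10, Dnajc16, Dnajc2, Dnajc9, Hspa14, Hspa8, Hspb11 and Hsph1 lost the KO against WT call. Without KO memory replicate 1, Dnajb2, Dnajc12 and Hsp90b1 lost the KO against WT call. Without KO memory replicate 2, Dnajb2 and Hsp90b1 lost the KO against WT call. Without KO memory replicate 3, Dnajb2 and Hspe1 lost the KO against WT call. Without KO memory replicate 4, Dnajb2, Dnajc12 and Hspe1 lost the KO against WT call. Without WT memory replicate 1, Dnajb2, Dnajc12, Hsp90b1 and Hspe1 lost the KO against WT call. Without WT memory replicate 2, Hspe1 lost the KO against WT call. Without WT memory replicate 3, Dnajb2, Dnajc12 and Hsp90b1 lost the KO against WT call. Without WT memory replicate 4, Dnajb2 and Hsp90b1 lost the KO against WT call. The cause of these changes was not tested. Depth limits members with few counts such as Hspa12a, Dnajc6 and Dnajc12.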
